A study of Mus musculus with 9 samples.

Results

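The genes described here build and run the early secretory pathway: they carry new proteins into the endoplasmic reticulum (ER), fold them there, load them into vesicles for the Golgi, and sense and answer an overload of unfolded protein. The list holds 46 genes. It was drawn up by gene name with earlier results of these data known, and no threshold on a measured value was used to choose them. An entry was kept where a probe set of the array names it and no other gene, and where several such probe sets existed the brightest was used. That left 44 genes of the 22180 genes measured in this way. Pdia4 and Srp54a had no probe set of their own, since Pdia4 shared its probe set with Mir704 and Srp54a shared with Srp54b and Srp54c. Ero1l, an older symbol, is named Ero1a below.

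The study followed endoderm formation in mouse embryonic stem cells that carry a green fluorescent protein transgene under the alpha-fetoprotein promoter (Afp::GFP). The cells were grown as embryoid bodies on gelatin in serum medium with ascorbic acid and transferrin, and reporter-positive cells were collected by flow cytometry on day 4, day 7 and day 21 of differentiation. RNA of 3 samples per day was amplified from 500 pg and hybridised to Affymetrix arrays, giving 9 arrays. Every group carried the same transgene and passed the same sort, so the only stated difference between groups is the day, and neither reporter-negative nor unsorted cells were part of the comparison. The labels do not say whether the samples of a day came from separate cultures, so the p-values below rest on the scatter among these samples alone, and that scatter may be purely technical. In sorted bulk cells, fewer cells of a type and less RNA per cell cannot be told apart.

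Values are log2 signals, so a difference of 1 is a factor of 2 in signal, and levels of different genes are not compared because probes differ in brightness. A gene counted as above background on a day where its mean exceeded 6.19, the highest 95th percentile of olfactory receptor genes on any array. By that measure 43 of the 44 genes were above background on all 3 days, and Creb3l3 only on day 7. Array medians lay between 5.88 and 5.98, and arrays of the same day correlated at 0.981 to 0.990 over all genes. The transcript of the reporter's own promoter, Afp, was below background on day 4 at 5.93, 5.62 and 5.62, and it reached 10.60 ± 0.07 (SD, n = 3) on day 7 and 13.07 ± 0.11 (SD, n = 3) on day 21. Sorted cells of day 4 thus carried the reporter label without Afp signal above background on the array.

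Proteins for secretion are delivered to the ER membrane by the signal recognition particle, pass through the Sec61 channel, lose their signal peptide to signal peptidase, and are folded by chaperones, disulfide isomerases and glycan-reading lectins. Folded cargo leaves in COPII-coated vesicles, and escaped ER residents are fetched back by KDEL receptors. Unfolded protein is sensed by Ern1 (IRE1), Eif2ak3 (PERK) and Atf6, which act through the transcription factors Xbp1, Atf4 with Ddit3, and the cleaved Atf6 itself. Visceral endoderm, yolk sac and liver cells export large amounts of plasma protein, and CREB3-family factors adjust the size of the secretory machinery in professional secretory cells.

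Promoters of the genes were read for the elements through which these factors are known to act. The ER stress response element (ERSE) is CCAAT followed by CCACG after 9 bases, and is bound by NF-Y together with Atf6 or Xbp1, while the unfolded protein response element (UPRE) is TGACGTGG. RefSeq promoters of GRCm38.p6 were available for 39 of the 46 listed genes, 42 promoters in all. ERSE, on either strand within 250 bases before the start, was found in 6 of these 42 promoters (14.3%) against 0.113% of all 32851 promoters. The 6 belong to Hspa5, Hsp90b1, Calr, Canx, Pdia6 and Dnajc3. A relaxed ERSE, in which the last part may read CCA, any base, G, contains the ERSE and found the same 6 genes (0.289% of all promoters). UPRE was found in the promoters of Kdelr3 and Sec24d, which is 4.76% of the 42 against 0.563% of all. Further motifs had no match in these windows: ERSE-II, which is ATTGG and CCACG with 1 base between them (0.03% of all promoters), the cAMP element, which is TGACG then TCA and shares its first 6 letters with UPRE (1.55%), and the amino acid response element, which is TGATG, any base, then AA and any base (3.44%). With 50 bases after the start included, UPRE was also found for Sec23a and ERSE-II for Dnajb11. A match describes letters and is no proof of binding.

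The stretches below show where the matches lie in 5 of the 6 promoters with an ERSE and in both with a UPRE, since the changes of these genes are set beside the elements further on. Capitals mark the matched element, ERSE in the first 5 and UPRE in the last pair, on whichever strand it lies, and each is read 5′ to 3′ along its gene. Hspa5 is chr2:34771980-34772089 on the plus strand, Hsp90b1 is chr10:86705525-86705664 on the minus strand with 2 matches, and Pdia6 is chr12:17266479-17266588 on the plus strand. Dnajc3 is chr14:118937822-118937931 on the plus strand and Canx is chr11:50325714-50325823 on the minus strand. Kdelr3 is chr15:79516298-79516407 and Sec24d is chr3:123267386-123267495, both on the plus strand.
Hspa5: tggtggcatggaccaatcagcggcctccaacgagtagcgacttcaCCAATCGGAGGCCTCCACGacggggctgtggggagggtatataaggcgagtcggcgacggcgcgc
Hsp90b1: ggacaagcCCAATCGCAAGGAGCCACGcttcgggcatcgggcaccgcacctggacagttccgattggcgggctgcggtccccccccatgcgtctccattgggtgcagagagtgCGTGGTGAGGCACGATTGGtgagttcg
Pdia6: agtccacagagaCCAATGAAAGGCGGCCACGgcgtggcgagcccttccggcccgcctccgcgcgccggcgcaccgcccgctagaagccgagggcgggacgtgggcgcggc
Dnajc3: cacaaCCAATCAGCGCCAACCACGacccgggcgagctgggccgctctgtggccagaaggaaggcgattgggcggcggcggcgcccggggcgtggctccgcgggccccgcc
Canx: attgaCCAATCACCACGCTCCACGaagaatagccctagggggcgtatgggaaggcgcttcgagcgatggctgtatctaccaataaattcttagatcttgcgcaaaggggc
Kdelr3: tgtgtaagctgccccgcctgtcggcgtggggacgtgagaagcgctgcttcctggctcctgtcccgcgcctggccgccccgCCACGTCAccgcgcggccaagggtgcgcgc
Sec24d: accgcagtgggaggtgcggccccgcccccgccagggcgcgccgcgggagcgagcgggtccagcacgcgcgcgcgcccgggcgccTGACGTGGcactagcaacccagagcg

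Genes that passed the test included sensors and transcription factors (Atf6, Eif2ak3, Xbp1, Ddit3 and Creb3l2), oxidative folding genes (Ero1a, Pdia5 and P4hb), the co-chaperone Dnajb9, and the export genes Sec24a, Sec24d and Kdelr3, all higher on day 21 than on day 4. Sec61b and Ssr1 were lower on day 21 than on day 4. None of the 5 luminal chaperones passed between any pair of days, although Hspa5 and Calr each did so under 1 alternative setting. Between day 4 and day 7, 11 genes rose and 0 fell (limma, Benjamini-Hochberg adjusted p under 0.05 over all 22180 genes, two-sided), against 6.98% of all genes higher and 6.47% lower. From day 7 to day 21, 8 rose and 4 fell, against 12.4% and 10.7% of all genes. Between day 4 and day 21, 15 rose and 2 fell, against 15% and 14.1% of all genes. The share of the 44 that rose was 25% at the first interval, 18.2% at the second and 34.1% over the whole course.

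Because nearly all of these genes are well above background, a second reading is closer to like for like. The median level of the 44 genes was 9.55, against 6.33 for all genes, and bright genes pass the test more often. Among the 11705 genes whose mean exceeded background, 29.8%, 42% and 52.2% passed in either direction at day 7 versus day 4, day 21 versus day 7 and day 21 versus day 4, and 13, 15 and 19 of the 44 genes passed in that fit. Read this way, the share of the 44 that passed is not above that of detected genes in general. At the first interval 13 of those 13 were higher, where the detected genes had 1698 higher and 1791 lower.

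The size of most changes was small. The median log2 change of the 44 genes was 0.11 at day 7 versus day 4, 0.00 at day 21 versus day 7 and 0.19 at day 21 versus day 4, beside -0.01, -0.03 and -0.03 for all genes. A change of at least 2-fold was reached by 3, 2 and 7 of the genes that passed, all higher. The share of all genes at that fold was not counted, so these counts do not set the 44 genes apart. In all, 18 genes passed in at least 1 comparison and 26 in none, where 36.2% of all genes passed in at least 1. In each of the 40 calls the arrays of the compared days did not overlap, but this was not confined to calls. Among the 44 genes it held for 21 higher and 3 lower at day 7 versus day 4. It held for 11 higher and 10 lower at day 21 versus day 7, and for 21 and 10 at day 21 versus day 4. The share over all genes was not counted, so these counts do not set the 44 genes apart either. Centring each array on its median moved the all-gene medians of the later comparisons from -0.03 to -0.13 and -0.14, and gave 6 higher and 7 lower at day 21 versus day 7, and 11 higher and 5 lower at day 21 versus day 4. The corresponding all-gene counts went from 2740 higher and 2366 lower to 2266 and 3760, and from 3328 and 3120 to 2686 and 4619.

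**Figure D1:**
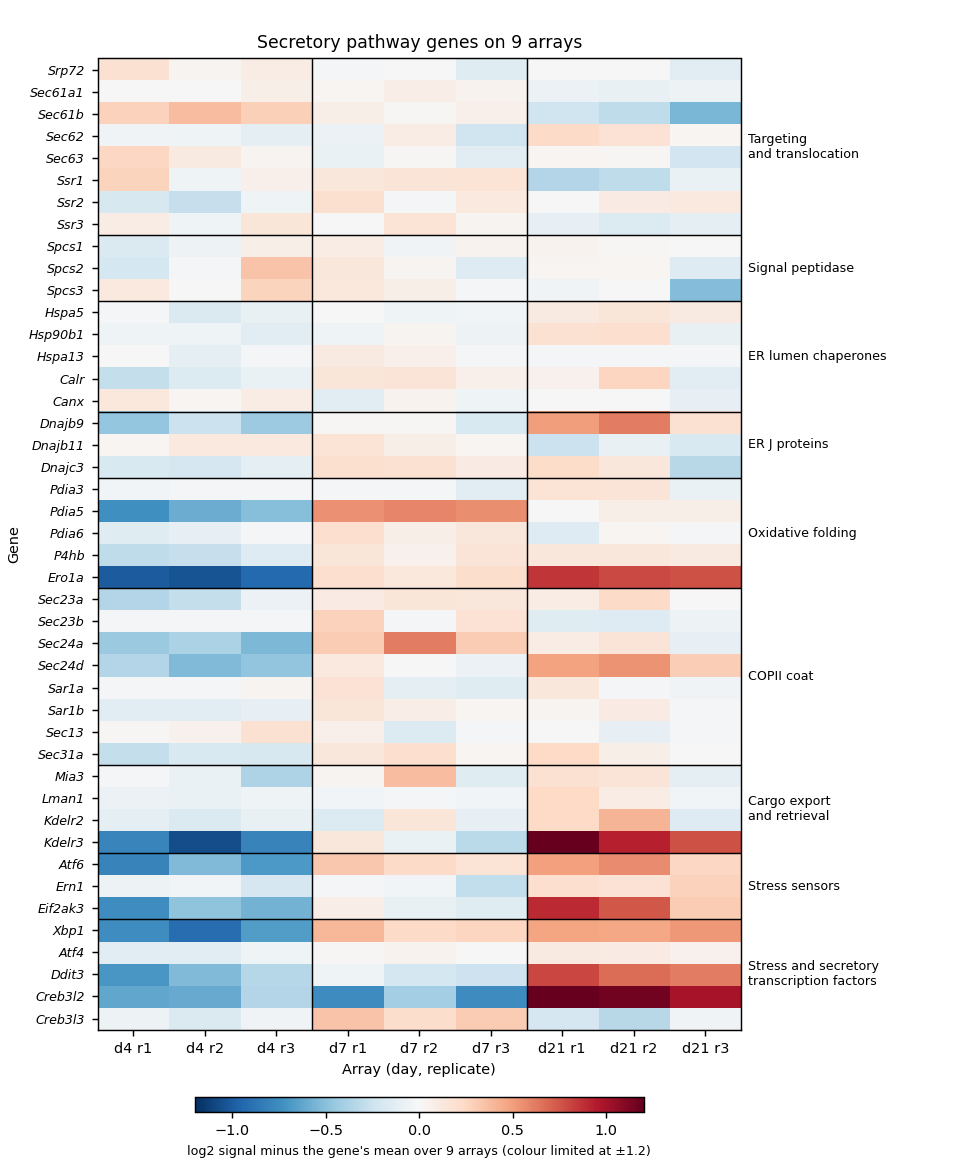
Log2 signal of each of the 44 genes on each of the 9 arrays, shown as the difference from that gene's mean over the arrays, with genes grouped by role and arrays ordered by day. The rows of Creb3l2, Kdelr3 and Ero1a carry the widest range, with Creb3l2 near 9.1 on day 4 and 10.8 on day 21, while rows of the luminal chaperones stay close to their means.

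Few genes for entry into the ER passed, and those that did were lower on day 21. Of 8 measured genes for targeting and translocation, 0 passed at day 7 versus day 4, and 2 (25%) fell in each comparison with day 21. Of all genes, 10.7% fell at day 21 versus day 7 and 14.1% at day 21 versus day 4. When only the 11705 genes above background were tested, 2539 and 3178 of them fell. The 2 genes thus do not set this group apart. Sec61b, the beta subunit of the translocation channel, read 9.13, 9.23 and 9.15 on day 4, 8.93, 8.87 and 8.92 on day 7, and 8.62, 8.55 and 8.31 on day 21. Each day lay below the one before with no overlap. It fell by 0.41 ± 0.10 (SE) from day 7 to day 21 (adjusted p = 0.0149) and was 1.6-fold lower on day 21 than on day 4 (adjusted p = 0.000592). A dimmer second probe set of Sec61b changed by 0.02 between day 7 and day 21, and the mean of both gave -0.19 with adjusted p = 0.275, which ends that call.

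Ssr1, the alpha subunit of the translocon-associated complex, read 8.57, 8.25 and 8.36 on day 4, 8.43, 8.45 and 8.46 on day 7, and 7.95, 7.99 and 8.22 on day 21. The day 21 arrays lay below all others. It fell by 0.40 ± 0.11 from day 7 (adjusted p = 0.0288) and by 0.34 ± 0.11 from day 4 (adjusted p = 0.0478). These calls rest on few arrays: the change from day 7 lost the threshold without 5 of the 9 arrays in turn (day 7 replicate 1, 2 or 3, or day 21 replicate 1 or 2, adjusted p 0.0682 to 0.0946), and the change from day 4 without 7 of them (all except day 4 replicate 2 and day 21 replicate 3, adjusted p 0.0651 to 0.167). Averaging its 2 probe sets also ended both calls, and the replicate number as a block ended the change from day 4 (adjusted p = 0.0657).

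The other 6 genes of the group passed in no comparison. They are Srp72 of the signal recognition particle, Sec61a1, the pore subunit, Sec62 and Sec63, which assist post-translational entry, and Ssr2 and Ssr3. The widest of their differences between day 21 and day 4 were 0.25 ± 0.10 for Ssr2, 0.21 ± 0.11 for Sec62 and -0.20 ± 0.11 for Sec63, with 95% intervals from 0.03 to 0.48, from -0.03 to 0.45 and from -0.44 to 0.04. Ssr2 passed there when only genes above background were tested (adjusted p = 0.0487). With a trended, robust variance it passed there (0.0226) and at day 7 versus day 4 (0.0275). Ssr3 passed at day 21 versus day 4 with arrays centred on their median (0.0412). The signal peptidase subunits Spcs1, Spcs2 and Spcs3 likewise passed nowhere. Spcs3, a glycoprotein subunit of the complex, was lowest on day 21 replicate 3, at 8.88 beside 9.35 and 9.39 on the other 2 arrays of that day. Its difference from day 4 was -0.32 ± 0.14 (adjusted p = 0.133), and with arrays centred on their median it passed at -0.43 (adjusted p = 0.049).

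None of the 5 luminal chaperones passed in any comparison. Hspa5 (BiP), the master Hsp70 of the ER and the classic readout of ER stress, read 9.43, 9.27 and 9.35 on day 4, 9.44, 9.39 and 9.41 on day 7, and 9.55, 9.59 and 9.56 on day 21. The day 21 arrays were the highest 3, by a small step of 0.21 ± 0.09 over day 4 (adjusted p = 0.0988, 95% interval 0.02 to 0.41), which passed with a trended, robust variance (adjusted p = 0.0447). Hsp90b1 (GRP94), the ER Hsp90, had day means of 12.46, 12.51 and 12.63. Canx and Calr, the lectin chaperones that hold monoglucosylated glycoproteins, differed by -0.11 ± 0.09 and 0.23 ± 0.12 between day 21 and day 4, and Calr passed there after quantile normalization (adjusted p = 0.0424). Over all 5 genes of the group, Hspa13 included, the 95% intervals of the day 21 minus day 4 difference spanned -0.32 to 0.49, so a change of 2-fold lies outside every one of them. For Hspa13 the deposited value is the same on 5 arrays, which narrows its apparent spread.

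Among the ER J proteins, which drive the Hsp70 cycle of Hspa5, only Dnajb9 passed. Dnajb9 (ERdj4), which helps BiP to hold Ern1 inactive and feeds misfolded proteins to degradation, read 8.87, 9.08 and 8.91 on day 4, 9.36, 9.36 and 9.16 on day 7, and 9.84, 9.95 and 9.52 on day 21. Each day was above the one before without overlap. It rose by 0.82 ± 0.13 between day 4 and day 21 (1.76-fold, adjusted p = 0.000735), with 0.34 ± 0.13 over the first interval (adjusted p = 0.132) and 0.48 ± 0.13 over the second (adjusted p = 0.0208). The second interval lost the threshold without day 7 replicate 3 (adjusted p = 0.0797), day 21 replicate 1 (0.068) or day 21 replicate 2 (0.0795). Dnajb11, a BiP co-chaperone that binds unfolded clients, was lower by 0.27 ± 0.09 on day 21 than on day 4 without passing (adjusted p = 0.0554), and passed under 4 alternatives (0.0133 to 0.0362). Dnajc3 (p58IPK) passed nowhere and ranged from 8.53 to 9.09 on day 21, but without day 21 replicate 3 it passed at day 7 versus day 4 (adjusted p = 0.0317) and at day 21 versus day 4 (0.0223).

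Oxidative folding held a sharp early change. Ero1a, the oxidase that recharges disulfide isomerases with oxidising equivalents, read 8.08, 8.04 and 8.14 on day 4, 9.28, 9.20 and 9.28 on day 7, and 9.93, 9.86 and 9.83 on day 21. Arrays of a day lay close together, and the days did not overlap. It rose by 1.17 ± 0.09 (2.25-fold, adjusted p = 9.5e-06) and then by 0.62 ± 0.09 (1.54-fold, adjusted p = 0.000437), reaching 3.46-fold over the whole course (adjusted p = 2.0e-07). A second, dimmer probe set near background gave 0.30 ± 0.11 for the first interval (adjusted p = 0.135), and 0.01 for the second.

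Pdia5, a disulfide isomerase with several thioredoxin-like domains, rose and then fell. Its arrays read 7.47, 7.62 and 7.69 on day 4, 8.76, 8.79 and 8.77 on day 7, and 8.21, 8.28 and 8.28 on day 21. All day 7 arrays were highest and all day 4 arrays lowest. It rose by 1.18 ± 0.09 (2.26-fold, adjusted p = 1.4e-05) and then fell by 0.51 ± 0.09 (1.43-fold lower, adjusted p = 0.00223), which left day 21 still 1.58-fold above day 4 (adjusted p = 0.000329). P4hb (PDI), the most abundant isomerase in many cells and also the beta subunit of collagen prolyl hydroxylase, went from 10.96 ± 0.08 to 11.32 ± 0.06 and 11.33 ± 0.02 (SD, n = 3 each). Its rise of 0.36 ± 0.09 (1.29-fold, adjusted p = 0.022) lost the threshold without day 4 replicate 1 or 2 or day 7 replicate 1 or 3 (adjusted p 0.0759 to 0.0783). Pdia3, the isomerase that works with Canx and Calr, and Pdia6 passed in no comparison, with 0.10 ± 0.10 and 0.04 ± 0.10 between day 21 and day 4.

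**Figure D2:**
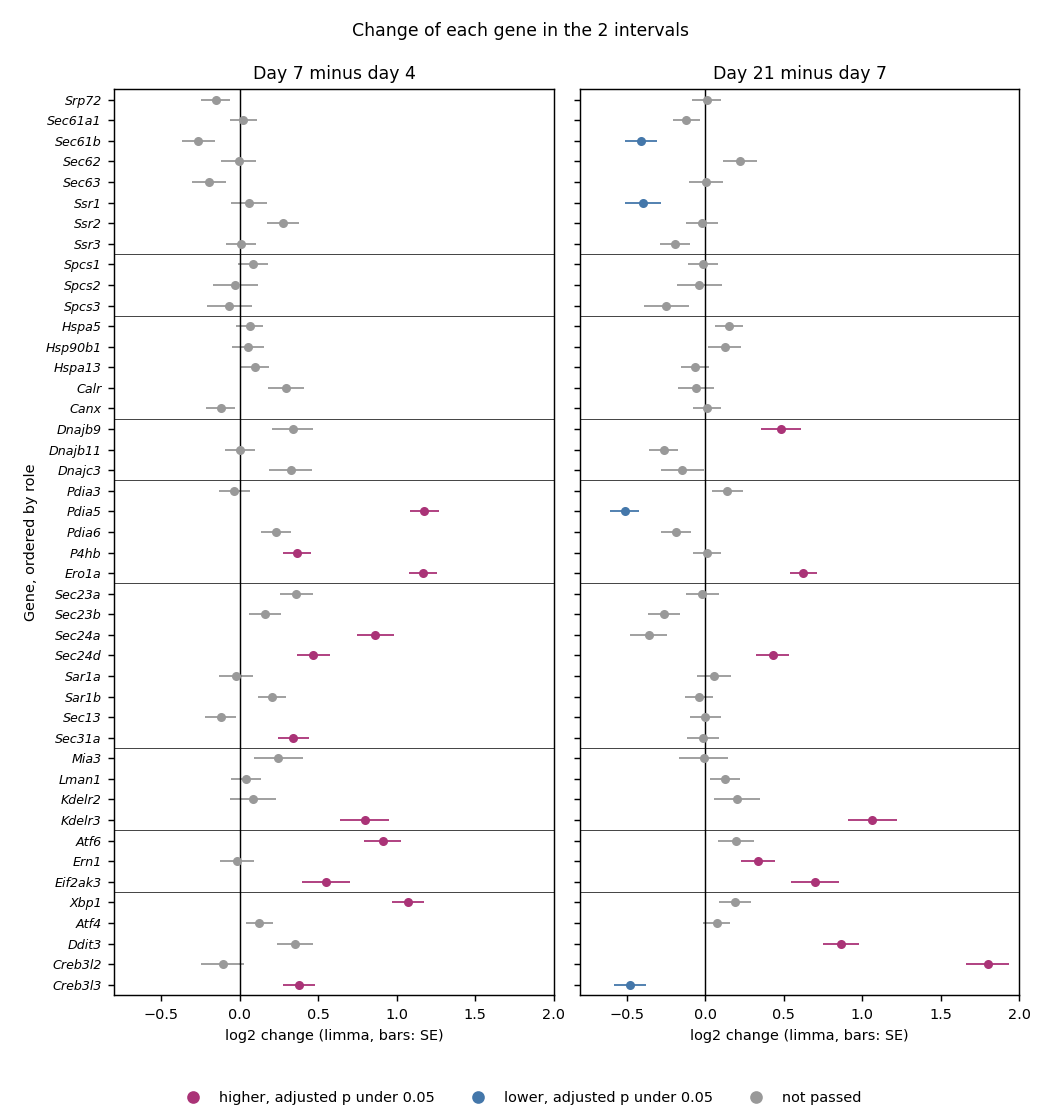
Log2 change of each gene with its standard error, day 7 versus day 4 on the left and day 21 versus day 7 on the right, coloured by whether it rose, fell or did not pass at an adjusted p of 0.05. Pdia5 lies at 1.18 on the left and -0.51 on the right, and Creb3l2 lies at -0.11 on the left and 1.80 on the right.

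In the COPII coat the largest changes were those of the Sec24 adaptors, the inner-layer subunits that select cargo. Of 8 genes, 3 rose at day 7, 1 at day 21 versus day 7 and 4 over the whole course, and 0 fell. Sec24a, a cargo adaptor, read 9.44, 9.51 and 9.34 on day 4, 10.19, 10.50 and 10.19 on day 7, and 9.97, 10.04 and 9.78 on day 21. It rose 1.82-fold to day 7 (0.86 ± 0.12, adjusted p = 0.000642), and its later difference of -0.36 ± 0.12 did not pass (adjusted p = 0.0506) but did under 4 alternatives (0.0167 to 0.0312).

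Sec24d, the paralog whose loss in other vertebrates impairs collagen export, rose in both intervals. It read 7.99, 7.81 and 7.87, then 8.46, 8.33 and 8.27, then 8.83, 8.88 and 8.64, and no day overlapped another. Its steps were 0.47 ± 0.11 (adjusted p = 0.0134) and 0.43 ± 0.11 (adjusted p = 0.0132), 1.86-fold in all. The first step lost the threshold without day 4 replicate 2 (adjusted p = 0.0589) or day 7 replicate 1 (0.0599), and the second without day 7 replicate 3 (0.0522) or day 21 replicate 2 (0.0518). The difference over the whole course (adjusted p = 9.6e-05) passed whichever array was left out.

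Smaller COPII changes were near the threshold. Sec31a, a scaffold of the outer coat, rose by 0.34 ± 0.10 to day 7 (adjusted p = 0.0477) and was 0.33 ± 0.10 above day 4 on day 21 (adjusted p = 0.0313). The earlier change was lost without any day 4 or day 7 array, or without day 21 replicate 2 (adjusted p 0.0632 to 0.141), and the later change without any day 4 array or without day 21 replicate 1 or 2 (0.0583 to 0.106). Sec23a, partner of the Sec24 adaptors, was 0.34 ± 0.11 higher on day 21 than on day 4 (adjusted p = 0.0354), a call lost without day 4 replicate 1 or 2, day 7 replicate 3 or day 21 replicate 1 or 2 (0.0501 to 0.121). With the replicate number as a block, both Sec23a (adjusted p = 0.0549) and the day 7 rise of Sec31a lost the threshold. Sec23b, Sec13 and the GTPases Sar1a and Sar1b that start coat assembly passed nowhere, and for Sec23b 4 arrays carry the same deposited value. After quantile normalization Sar1b passed at day 21 versus day 4 (adjusted p = 0.0454). Without day 7 replicate 2 Sec23b passed at day 21 versus day 7 (adjusted p = 0.0405), and Sec23a passed at day 7 versus day 4 without day 4 replicate 3 (0.0316) or day 21 replicate 3 (0.0428).

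Cargo receptors and retrieval showed 1 large change. Kdelr3, a KDEL receptor that returns escaped chaperones from the Golgi, read 7.36, 7.09 and 7.35 on day 4, 8.29, 8.07 and 7.83 on day 7, and 9.37, 9.08 and 8.92 on day 21. No arrays of different days overlapped. It rose by 0.79 ± 0.15 (1.74-fold, adjusted p = 0.00567) and by 1.06 ± 0.15 (2.09-fold, adjusted p = 0.000528), to 3.63-fold over the course (adjusted p = 8.7e-06). Kdelr2, which shares its task, went from 9.69 ± 0.05 to 9.97 ± 0.29 (SD, n = 3 each) without passing (0.29 ± 0.15, adjusted p = 0.186), and its day 21 arrays scattered from 9.65 to 10.22. Without day 21 replicate 3 that difference passed (adjusted p = 0.0213). Mia3 (TANGO1), which packs procollagen and other bulky cargo into COPII carriers, and Lman1 (ERGIC-53), the cargo receptor of coagulation factors, differed by 0.23 ± 0.15 and 0.17 ± 0.10 between day 21 and day 4 and passed nowhere.

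The sensors of unfolded protein all ended above their day 4 level. Atf6, which is cut in the Golgi to free a transcription factor, read 8.94, 9.22 and 9.05 on day 4, 10.06, 9.97 and 9.91 on day 7, and 10.23, 10.31 and 9.99 on day 21. Its rise was early, 0.91 ± 0.12 to day 7 (1.88-fold, adjusted p = 0.000398), followed by 0.19 ± 0.12 (adjusted p = 0.288). Eif2ak3 (PERK), the kinase that slows translation under ER stress, read 6.33, 6.60 and 6.51, then 7.16, 6.99 and 6.93, then 7.97, 7.82 and 7.38. It was 2.37-fold above day 4 by day 21 (adjusted p = 0.00013).

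The first step of Eif2ak3, 0.55 ± 0.15 (adjusted p = 0.0394), lost the threshold without any day 4 or day 7 array or without day 21 replicate 2 (adjusted p 0.0543 to 0.137), and its second, 0.70 ± 0.15 (adjusted p = 0.00712), did not. Ern1 (IRE1), the kinase and ribonuclease that splices Xbp1 RNA, had day means of 7.90, 7.88 and 8.21. Its later rise of 0.33 ± 0.11 (adjusted p = 0.0471) lost the threshold without each of the 9 arrays in turn (0.0548 to 0.163), and its difference from day 4 (0.32 ± 0.11, adjusted p = 0.0487) without every array except day 7 replicate 3 (0.0564 to 0.155). With the replicate number as a block, these 2 adjusted p values were 0.0623 and 0.063.

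Of the 5 transcription factors, 2 rose and 0 fell to day 7, 2 rose and 1 fell after it, and 3 rose and 0 fell over the course. Xbp1, which drives ER expansion in secretory cells after splicing by Ern1, read 9.25, 9.08 and 9.32 on day 4, 10.39, 10.22 and 10.26 on day 7, and 10.47, 10.46 and 10.52 on day 21. It rose 2.10-fold to day 7 (1.07 ± 0.10, adjusted p = 4.3e-05), and the next step of 0.19 ± 0.10 did not pass (adjusted p = 0.223). The array measures total Xbp1 RNA and does not separate its spliced form.

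Ddit3 (CHOP), induced by Atf4 in prolonged stress, read 7.77, 7.94 and 8.12 on day 4, 8.41, 8.25 and 8.22 on day 7, and 9.27, 9.13 and 9.07 on day 21. Its change lay in the second interval, 0.86 ± 0.12 (1.82-fold, adjusted p = 0.000327), after 0.35 ± 0.12 in the first (adjusted p = 0.0776), which passed without day 4 replicate 3 (0.0463) and under 2 other settings (lowest 0.0323). Atf4, the hub of the integrated stress response and mostly controlled at translation, had day means of 10.63, 10.75 and 10.82. It passed in no comparison, although at day 21 versus day 4 it did so after quantile normalization (adjusted p = 0.0368). A trended, robust variance also gave a pass there (0.031).

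Creb3l2 (BBF2H7), a membrane-bound factor that promotes Sec23a transcription and matrix secretion in cartilage, had the largest single-interval change of the 44 genes. It read 9.01, 9.03 and 9.29 on day 4, 8.88, 9.23 and 8.88 on day 7, and 10.97, 10.79 and 10.63 on day 21. The first 2 days overlapped, and all day 21 arrays were above every earlier one. The rise of 1.80 ± 0.14 was 3.48-fold (adjusted p = 6.4e-06).

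Creb3l3 (CREBH), a liver and gut factor that controls lipid and acute-phase genes, stayed close to background: 6.15, 6.04 and 6.17 on day 4, 6.56, 6.43 and 6.51 on day 7, and 6.01, 5.88 and 6.17 on day 21. Only the day 7 arrays lay above the background level, so the changes given next are against values not above background. Its rise of 0.38 ± 0.10 (adjusted p = 0.0339) lost the threshold without any day 4 or day 7 array (adjusted p 0.0541 to 0.121), and it then fell by 0.48 ± 0.10 (adjusted p = 0.00614).

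Ordered by their course, 4 genes rose in both intervals (Sec24d, Kdelr3, Ero1a and Eif2ak3), and 5 rose to day 7 with a second step that did not pass (Sec24a, Sec31a, P4hb, Xbp1 and Atf6). Another 4 passed only in the second interval, all higher (Dnajb9, Ddit3, Creb3l2 and Ern1). Pdia5 and Creb3l3 rose and then fell, Sec61b and Ssr1 fell only in the second interval, and 27 passed in neither interval. A gene that passed in 1 interval and not in the other was not tested for a difference between the intervals.

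Paralogs were compared within each array, so that array-wide effects cancel. Of 5 pairs, 3 passed an exact permutation test of the F statistic over the 9 arrays, which asks whether the pair changed unequally over the days, and in 2 of the 3 both genes were above background on all days. Each of the 3 reached an exact permutation p = 0.00357, the smallest that 1680 arrangements allow, and 0.00595 after Benjamini-Hochberg adjustment over the 5 pairs. The log2 difference Kdelr2 minus Kdelr3 shrank from 2.42 ± 0.11 on day 4 to 1.71 ± 0.31 on day 7 and 0.85 ± 0.25 on day 21 (SD, n = 3 each). In the pair Creb3l2 and Creb3l3, Creb3l3 was not above background on day 4 or day 21, so the size of its difference is not given.

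Sec24a minus Sec24d widened from 1.54 ± 0.14 to 1.94 ± 0.22 and narrowed to 1.15 ± 0.01. These values track the shift of a difference and say nothing of which paralog is more abundant. For Sec23a minus Sec23b the exact permutation p was 0.0714 (adjusted 0.0714), and for Sar1a minus Sar1b it was 0.0536 (adjusted 0.067). Without day 7 replicate 1 both pairs passed at an adjusted exact permutation p of 0.0393, and Sec23a minus Sec23b also passed without day 7 replicate 2 at 0.0402.

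The promoter elements and the array changes can be set side by side. All 6 genes with an ERSE were measured and 0 of them passed in any comparison, with medians of 0.15, -0.02 and 0.18 at day 7 versus day 4, day 21 versus day 7 and day 21 versus day 4. Hspa5, Calr and Dnajc3 each passed under some alternative setting. Of 21 other measured genes in the genome with an ERSE, 1 rose and 0 fell at the first comparison, 0 passed at the second, and 2 rose and 0 fell at the third. Kdelr3 and Sec24d, the genes with a UPRE, rose in all 3 comparisons, but each single-interval call of Sec24d was lost without either of 2 arrays. Among 124 other measured genes with a UPRE, 13 rose and 6 fell, 15 rose and 15 fell, and 24 rose and 21 fell. Of all genes, 6.98% rose and 6.47% fell at the first comparison, 12.4% and 10.7% at the second, and 15% and 14.1% at the third. The counts by element were made after the changes were known and carry no test.

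Neighbouring parts of the pathway were read from 11 further lists with 178 measured entries. Among 20 other ER folding factors, 4 rose and 0 fell at day 7 versus day 4, 3 rose and 4 fell at day 21 versus day 7, and 5 rose and 3 fell at day 21 versus day 4. Sil1, the nucleotide exchange factor of BiP, rose by 0.76 ± 0.12 and again by 0.51 ± 0.12, and Qsox1, a Golgi sulfhydryl oxidase, rose by 1.88 ± 0.12 in the second interval. Hyou1, the large Hsp70 relative that also serves BiP, fell by 0.55 ± 0.09 in that interval. Of 13 other targeting and translocation genes, 2 rose and 1 fell, 1 rose and 3 fell, and 2 rose and 2 fell, with Tram2 falling by 1.13 ± 0.20 and then rising by 0.83 ± 0.20.

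Further vesicle and glycan genes passed in small numbers. Of 20 other COPII and cargo receptor genes, 1 rose and 0 fell at day 7 versus day 4, 0 rose and 1 fell at day 21 versus day 7, and 6 rose and 1 fell at day 21 versus day 4, led by the p24 cargo receptor Tmed9 at 0.60 ± 0.15. Of 16 COPI coat and tether genes, 2, 1 and 4 rose and 0 fell, with Copz2 at 0.85 ± 0.17 in the second interval. Among 19 genes of N-glycosylation and glycan trimming, 5 rose and 0 fell, then 0 rose and 3 fell, and over the course 4 rose and 0 fell. Man1a, a Golgi mannosidase, rose from a day 4 mean of 5.79, not above background, to 7.25 on day 7. Rpn1, an oligosaccharyltransferase subunit, rose by 0.36 ± 0.09 to day 7 and fell by 0.41 ± 0.09 after it.

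Degradation and stress lists included some large changes. Of 15 genes of ER-associated degradation, 5 rose and 0 fell to day 7, 2 rose and 1 fell after it, and 6 rose and 0 fell over the course. Herpud1, a scaffold of the degradation complex and a common stress target, rose by 0.90 ± 0.12 to day 7, and Os9, a lectin that selects misfolded glycoproteins, rose by 1.17 ± 0.12 after it. Among 16 targets of the integrated stress response, 2 rose and 4 fell to day 7, and 7 rose and 2 fell in each later comparison. Atf3 rose by 0.73 ± 0.15 and then by 2.84 ± 0.15. Slc7a11, the cystine transporter, rose in the second interval from a level not above background to 6.25 on day 21. Asns, asparagine synthetase and an Atf4 target, fell by 0.73 ± 0.09 in the same interval.

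The CREB3 and ATF6 relatives numbered 7, of which 2 rose and 1 fell to day 7, 1 rose after it, and 3 rose over the course. Creb3l1 (OASIS) rose by 1.68 ± 0.17 to day 7, an interval in which Creb3l2 differed by -0.11 ± 0.14. Of 14 collagen folding and modification genes, 1 rose and 2 fell to day 7, 7 rose and 1 fell after it, and 8 rose and 1 fell over the course. P4ha1, the prolyl hydroxylase subunit that pairs with P4hb, rose by 1.85 ± 0.12 to day 7, and Plod2, a collagen lysyl hydroxylase, by 1.66 ± 0.10 after it. Of 20 genes for secreted liver and yolk sac cargo, 15 rose to day 7, 10 rose and 8 fell after it, and 18 rose over the course, Apob by 5.83 ± 0.16 to day 7, while Alb went from 5.31 on day 7, not above background, to 11.50 on day 21. Chaperones of the cytosol and mitochondria moved the other way, since of 18 genes 14 fell and 4 rose between day 4 and day 21, with Hsph1 falling by 1.17 ± 0.09 and Hspa1b rising from 5.77, not above background, to 7.14.

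**Figure D3:**
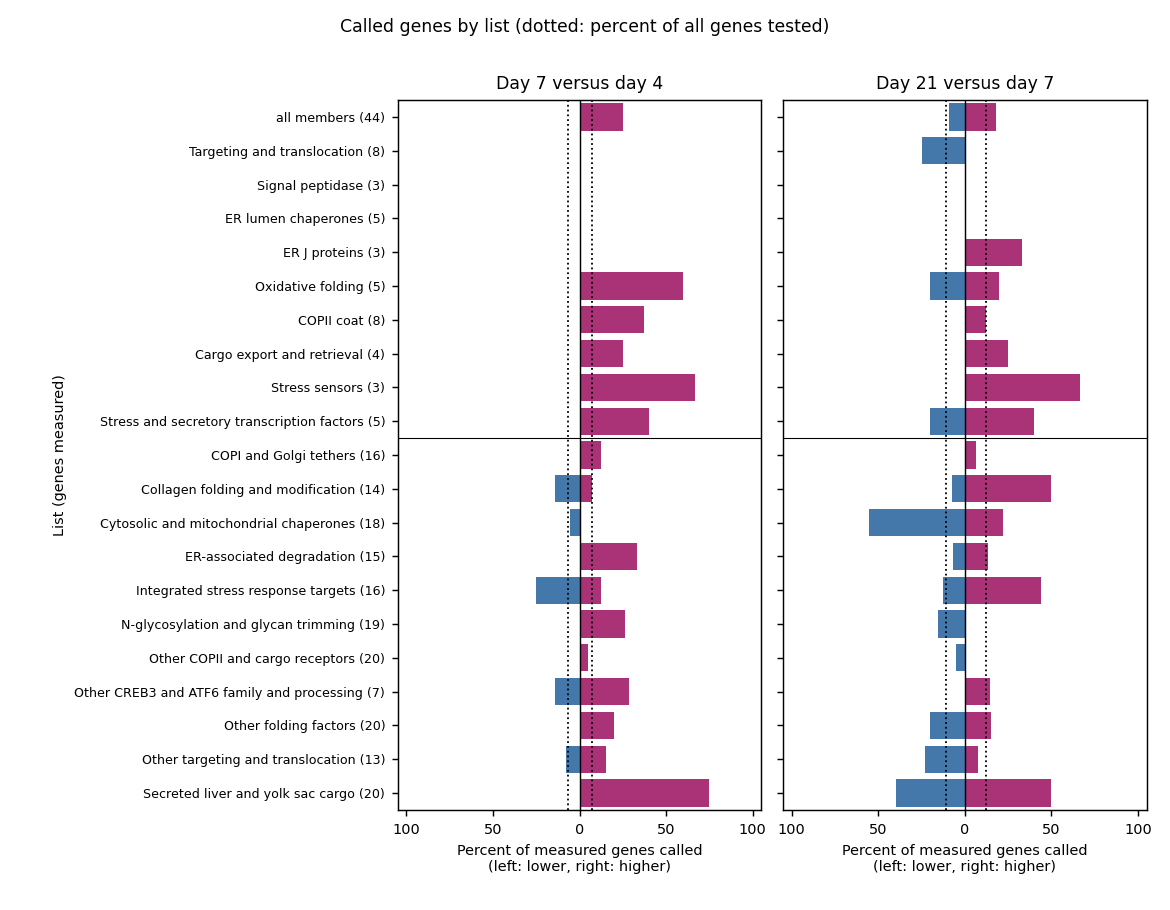
Percent of the measured genes that rose (right) or fell (left) at day 7 versus day 4 and at day 21 versus day 7, for the role groups of the 44 genes and the 11 further lists, with dotted lines at the percent of all genes called. The luminal chaperones and signal peptidase stand at 0, and the secreted cargo list reaches 75% higher at day 7 versus day 4, and 50% higher with 40% lower at day 21 versus day 7.

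Markers of cell types also changed over the days. The 12 measured mesenchyme and fibroblast markers had a mean log2 signal of 7.23 to 7.27 on day 4, 6.51 to 6.71 on day 7, and 9.53, 9.08 and 8.73 on replicates 1, 2 and 3 of day 21. To day 7, 0 of the 12 rose and 5 fell, an interval in which Kdelr3 and Sec24d rose. In the second interval 10 of the 12 rose and 0 fell, Col1a1 going from a day mean of 7.59 to 11.39, and all 12 were above background on day 21. The part of these markers in the rises of Creb3l2, Kdelr3 and Sec24d was not tested.

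Endoderm markers moved in the interval where Xbp1, Atf6, Ero1a and Pdia5 rose. Of 12 visceral endoderm markers 10 rose to day 7, the list mean going from 7.04 to 7.09 on day 4 up to 9.81 to 9.84 on day 7, and 9 fell and 2 rose after it, to 9.04 to 9.09 on day 21. Of 9 hepatic markers 4 rose to day 7, and 7 rose and 1 fell after it, with list means of 5.52 to 5.67, 6.97 to 7.02 and 9.17 to 9.42 on the 3 days. These lists share genes. Alb, Afp, Ttr, Vtn, Ambp and Serpina1a of the hepatic list are also in the secreted cargo list. So are Afp, Apob and Ttr of the visceral endoderm list, and Afp is the gene of the sorting reporter. Changes of these 7 genes are thus counted in more than 1 list. Cardiac markers had 3 of 10 higher on day 7 and 4 lower after it, with Tnnc1 at 7.68, 10.89 and 8.41, and Myh6 and Actn2 below background throughout. Endothelial markers had 3 of 9 higher and 1 lower to day 7 and 4 lower after it, with Kdr at 8.97, 8.16 and 6.90, and Tek, Tie1, Emcn, Cldn5 and Esam below background throughout. The part of these lists in the changes of the 44 genes was not tested.

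The remaining lists bear on the same changes. Leukocyte markers had 1 of 9 higher to day 7, 4 higher after it and 5 higher over the course. Cd68 had day means of 8.36, 9.26 and 9.36, Csf1r of 5.87, 5.91 and 7.42, Cd14 of 4.83, 5.34 and 8.82, and Laptm5 of 5.99, 5.60 and 7.11. Lyz2 rose to 5.91, still below background, and Ptprc, the pan-leukocyte gene, Tyrobp, Fcer1g and Cd48 were below background on all days. The part of these markers in the rises of day 21 was not tested. Acinar pancreas markers, from another cell type with a large ER, had 0 of 7 passing anywhere, and 5 of the 7 were below background on all days. Neural markers had 2 of 9 higher and 4 lower to day 7 and 2 higher and 3 lower after it. Pluripotency markers had 1 higher and 3 lower of 9 in each interval, Tdgf1 falling from 11.34 to 7.46 and 5.15. Sox2 is in both the neural and the pluripotency list.

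Array differences within a day also touched the 44 genes. Day 21 replicate 3 was the lowest array of its day for 30 of them (68.2%), against 45.8% of the 11090 genes brighter than the all-gene median, and day 7 replicate 3 was lowest of its day for 25 (56.8%, against 42.5%). Without day 21 replicate 3 the counts of genes passing were 13 at day 7 versus day 4, 11 at day 21 versus day 7 and 18 at day 21 versus day 4. The counts over all genes then went from 2983, 5106 and 6448 to 3285, 5048 and 6224. The 11 genes that rose to day 7 became 7 without day 4 replicate 1, 6 without day 4 replicate 2, 6 without day 7 replicate 1 and 7 without day 7 replicate 3. Over all genes, the 1548 that rose became 1253, 1193, 1176 and 1272 without the same arrays. The 8 that rose from day 7 to day 21 became 5 without day 7 replicate 3 or day 21 replicate 2. Over all genes, the 2740 that rose there became 2308 and 2363. Counts thus fell over all genes too, and a part particular to the 44 genes was not tested.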

How the data were processed

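RNA of 9 samples of reporter-sorted mouse cells, 3 per day, was hybridised to Affymetrix arrays after WT Pico amplification, per the labels' protocols. The authors deposited log2 values made by RMA in Affymetrix Expression Console, per the submitters' processing notes, which name no version. This method equalises arrays, so a shift common to all genes is not visible, and amplification of little RNA can distort dim genes. Of 34365 probe sets, 23521 carry 1 symbol, 1814 several and 9030 none in the platform annotation. The brightest probe set of a symbol was kept for 22180 genes.

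Changes were tested by linear models on all 9 arrays together (limma version 3.58.1, R version 4.3.3, moderated by eBayes, two-sided, Benjamini-Hochberg adjustment over all genes, called at adjusted p under 0.05 with no minimum fold), after tests on simulated data. In the simulated day 7 versus day 4 comparison, 32%, 94% and 100% of log2 changes of 0.5, 1 and 2 were called. A gene that did not pass may therefore still have changed by an amount near 0.5. Groups came from the labels and no 2 arrays held identical values. Named genes were all members, and from each further list up to 3 passing genes with the largest changes per comparison; Asns was chosen after its values were seen. The members and lists were chosen with earlier results of these data known. Promoters came from RefSeq, GRCm38.p6, and motifs were searched with Python 3.11.15. Protein sequences were not used here. Alternatives were other scalings, filters, probe set rules, variance settings, sample sets, a replicate block and leaving out each array. Whether the replicate numbers pair the arrays is not known, and the main fit used no pairing. The number of arrays limits precision.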

Additional observations from a re-analysis of the deposited data

How the results depend on the processing

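Of 40 calls on single genes, 25 kept their side of the threshold under all 16 alternatives run on them and 15 lost it somewhere; of 92 results that did not pass, 17 passed under some alternative, and 0 calls reversed. The 11 genes higher at day 7 versus day 4 ranged from 6 to 13 with 1 array left out. The 8 higher at day 21 versus day 7 ranged from 5 to 7, and the 2 lower at day 21 versus day 4 from 1 to 2. The same counts over all genes ranged from 1176 to 1647 (1548 with all arrays), from 2299 to 2697 (2740) and from 2491 to 3016 (3120). Centring arrays on their median gave 7 lower at day 21 versus day 7, in place of 4, and 5 lower at day 21 versus day 4, and moved the median changes to -0.0986 and 0.0754. Testing only genes above background gave 7 lower at day 21 versus day 7, and the mean of probe sets gave 2 there and 1 at day 21 versus day 4. Fitting only the 2 days compared also gave 1 lower at day 21 versus day 4. Among all genes above background, 2539 of 11705 were lower at day 21 versus day 7. With the mean of probe sets 2335 of all genes were lower there and 3099 at day 21 versus day 4. The fit of only 2 days gave 2833 lower at day 21 versus day 4. Asking in addition for at least 1.5-fold, chosen after seeing the data, left 6 at day 7 versus day 4, 5 higher and 0 lower at day 21 versus day 7 (5 in all), and 11 at day 21 versus day 4, 1 of them lower. Of all genes, 8.59%, 14.4% and 18.1% met that rule in the same comparisons. These were 1041 higher and 865 lower, 1981 and 1216, and 2293 and 1724. The shift over the course ranged from 0.36 to 0.53 for Sec23a minus Sec23b and from -0.193 to -0.0843 for Sar1a minus Sar1b with 1 array left out. Medians over members brighter than the all-gene median, also chosen after seeing the data, moved by less than the replicate spread. The cause of these shifts was not tested.

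With the replicate number as a block, 10, 12 and 14 genes passed, with 1 lower at day 21 versus day 4. Over all genes, 2895, 5041 and 6413 passed in that fit, with 3098 lower at day 21 versus day 4. Deviations of same-numbered arrays correlated between -0.05 and 0.26. Those that involve a day 4 array were all negative. Same-numbered arrays of day 7 and day 21 gave 0.08, 0.14 and 0.26, beside -0.18 to 0.07 for different numbers on these days. The labels do not say whether the numbers pair the arrays, and these values do not settle it. The block ended 5 calls on single genes and added Sec24a at day 21 versus day 7 (adjusted p = 0.0312).

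Limits: 3 arrays a day, unknown independence of cultures, and a smallest passing change of 0.32 on the log2 scale. Creb3l3 is near background.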
